A study of Homo sapiens with 6 samples.

Results

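Metallothioneins are small cysteine-rich proteins that bind zinc and copper in the cytosol, and with their transcriptional regulator MTF1 and the zinc exporter SLC30A1 they make up the 9 genes described here. The 9 were taken by symbol: the metallothioneins MT1E, MT1F, MT1G, MT1M, MT1X, MT2A and MT3, together with MTF1 and SLC30A1. All 9 were found among the 17687 genes of the array, each with a single probe set. The cells were SH-SY5Y, an established line from a human neuroblastoma of sympathetic lineage, compared as 3 arrays labelled 15EN against 3 arrays of vehicle control (VC). The labels do not expand 15EN; the treatment text gives a bioactive compound at 15 µM, and the series title names eurycomanone, from Eurycoma longifolia root. Both groups carry the same treatment text, in which atRA (all-trans retinoic acid) served as the differentiation agent over 96 h. Each replicate number has its own passage (33, 34 or 35) in the titles and is represented once in each group, whereas every description names passage 33. The labels do not say that the cultures of a group were otherwise separate, so a p-value here reflects no more than array-to-array spread, possibly technical in origin. The line is a cultured tumour line, and only the 15 µM samples and their vehicle controls were analysed here.

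As background, free zinc that enters the cell binds the zinc fingers of MTF1, which then occupies metal response elements in the promoters of the metallothionein genes and of SLC30A1. Metallothioneins buffer the metal, and SLC30A1 (ZnT1) carries zinc out across the plasma membrane, so this gene group is a common readout of zinc or cadmium load. MT1 and MT2 isoforms are also known to respond to oxidants and glucocorticoids, whereas MT3 is a largely neuronal isoform that responds little to metals.

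Before the values, the quality of the arrays bears on what follows. Median log2 signal over genes lay between 7.60 and 7.71 on the 15EN arrays and between 7.60 and 7.63 on the VC arrays. 15EN replicate 3 correlated with 15EN replicates 1 and 2 at Pearson's r of 0.979 and 0.980 over all probe sets. This was lower than the 0.991 between those replicates and the 0.990 to 0.992 among VC arrays. 15EN replicate 3 was also closer to the VC arrays (0.971 to 0.973) than 15EN replicates 1 and 2 were (0.966 to 0.968). Results are therefore also given without it where it matters. Of 15 measured markers of the labelled cell line, HAND2 and GATA3 were bright on all arrays (12.26 to 12.67 and 12.67 to 12.94 in 15EN, 12.27 to 12.55 and 12.44 to 12.98 in VC). STMN2 was also bright but lower in 15EN (12.98 to 13.50, against 14.88 to 15.16 in VC). TH, the dopamine-synthesis enzyme, was dim on all arrays. Of the 15, 0 were higher in 15EN and 10 lower. Each marker count here stands beside 12.3% higher and 9.09% lower among all genes. Of 7 markers of Schwann cells and other glia, 6 were dim on all arrays and 0 passed the test. Fibroblast markers had 0 higher and 2 lower of 7, and their mean log2 level was 8.56 to 9.34 on the 15EN arrays and 9.27 to 9.66 on the VC arrays. Markers of substrate-adherent neuroblastoma cells had 2 higher and 4 lower of 10, with mean levels of 9.95 to 10.64 in 15EN and 10.43 to 10.81 in VC. The part of these shifts in the results below was not tested. In such bulk samples, fewer cells of a type and less RNA per cell cannot be told apart.

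The promoters of 4 of the 9 members were matched in RefSeq (build GRCh38.p14), namely SLC30A1, MTF1, MT2A and MT1X, in windows of 300 bases that run from 250 bases before to 50 bases after the transcription start. They were searched on both strands for the core of the metal response element, TGCACNC or TGCGCNC, and for the core of the antioxidant response element, TGACNNNGC. The windows of SLC30A1 (chr1:211579112-211579411, minus strand), MT2A (chr16:56608334-56608633, plus strand) and MT1X (chr16:56682220-56682519, plus strand) are shown because these genes share the metal response element core but differed in response. They read 5′ to 3′ on the gene's strand, with the metal response element cores in capitals, on whichever strand they match, and all other bases in lower case.
SLC30A1: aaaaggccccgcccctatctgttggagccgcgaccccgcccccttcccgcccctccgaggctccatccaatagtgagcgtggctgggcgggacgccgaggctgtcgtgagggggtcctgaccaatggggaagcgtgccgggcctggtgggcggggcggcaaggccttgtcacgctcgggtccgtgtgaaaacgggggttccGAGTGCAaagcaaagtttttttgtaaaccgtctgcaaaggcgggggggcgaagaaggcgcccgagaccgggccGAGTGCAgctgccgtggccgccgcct
MT2A: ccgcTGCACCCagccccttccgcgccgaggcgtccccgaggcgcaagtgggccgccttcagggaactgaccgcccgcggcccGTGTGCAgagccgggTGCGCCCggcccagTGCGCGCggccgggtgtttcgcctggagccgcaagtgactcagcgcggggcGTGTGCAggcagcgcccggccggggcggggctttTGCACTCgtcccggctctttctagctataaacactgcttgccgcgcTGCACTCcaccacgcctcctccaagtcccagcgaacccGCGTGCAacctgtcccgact
MT1X: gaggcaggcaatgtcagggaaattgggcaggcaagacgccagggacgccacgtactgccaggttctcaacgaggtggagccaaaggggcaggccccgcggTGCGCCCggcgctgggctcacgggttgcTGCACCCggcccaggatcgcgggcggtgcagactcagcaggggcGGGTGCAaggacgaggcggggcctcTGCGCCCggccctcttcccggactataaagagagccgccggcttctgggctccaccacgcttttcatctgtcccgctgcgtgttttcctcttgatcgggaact

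Metal response element cores were most frequent in the metallothionein windows. MT2A held 8, of which 5 lay on the gene's strand, a number reached by 0.0199% of all 35116 promoter windows of that length. MT1X held 4 (0.601% of windows had at least as many) and SLC30A1 held 2, both on the opposite strand (8.60%). The MTF1 window held 0 such matches, and 29.6% of all windows held at least 1. SLC30A1, MT2A and MT1X each held 1 antioxidant response element core, which 13.3% of windows carry, and the MTF1 window held 0. These are matches of letters within one window and say nothing of occupancy.

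**Figure D1:**
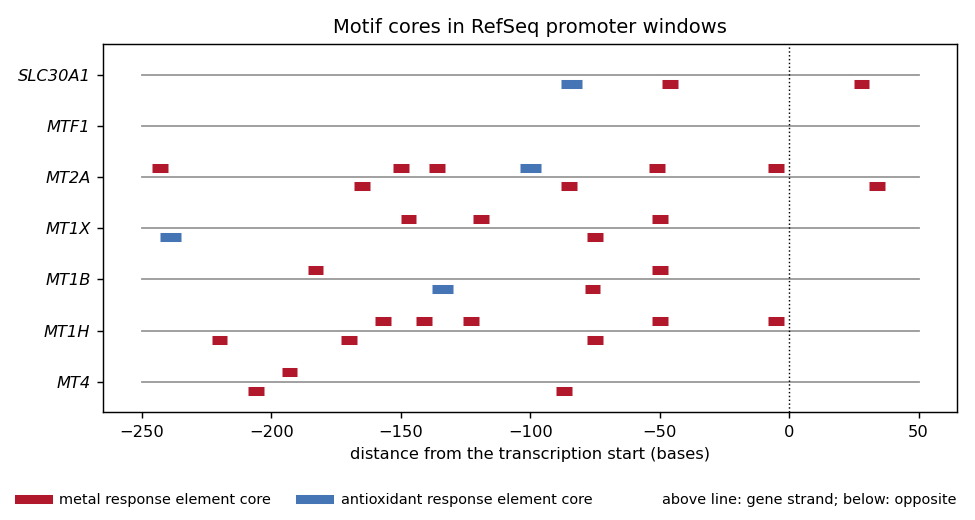
Positions of metal response element cores (red) and antioxidant response element cores (blue) by distance in bases from the transcription start in 7 RefSeq promoter windows, drawn above the line for the gene's strand and below it for the opposite strand. MT2A and MT1H hold 8 metal response element cores each, SLC30A1 holds 2 and MTF1 holds 0.

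The comparison of 15EN with VC asks whether the compound moved the zinc-handling genes. The exporter SLC30A1 and the regulator MTF1 were higher in 15EN, while 0 of the 7 metallothioneins passed the test in either direction. Each difference is a log2 difference, 15EN minus VC, from limma fitted over all 17687 genes, with Benjamini-Hochberg adjustment and a threshold of adjusted p 0.05. Of the 9 members, 2 were called higher and 0 lower. Among all genes, 12.3% were called higher, 9.09% lower and 21.4% in either direction, so the share of members called is near the background and the count alone is not a result about the group. The median difference was 0.13 over the 9 members and 0.01 over all genes. Directions are relative to the median gene of the arrays as deposited. The spiked hybridization controls were dimmer in 15EN (10.31 to 10.60, against 11.22 to 11.37 in VC). Scaling the arrays to them moved the median gene itself to 0.88, and each value then has to be read against that shift.

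SLC30A1 had log2 signals of 11.60, 11.75 and 10.66 in 15EN replicates 1, 2 and 3, against 8.82, 9.24 and 9.40 in VC replicates 1, 2 and 3. All 15EN arrays lay above all VC arrays, and 15EN replicate 3 was the lowest of its group. The means were 11.34 ± 0.59 in 15EN and 9.15 ± 0.30 in VC (SD, n = 3 each), and the log2 difference was 2.19 ± 0.31 (SE, limma adjusted p = 0.00101), a 4.55-fold higher signal with a 95% interval of 2.84 to 7.29. Its size exceeded that of 98.3% of all genes. Within passages the differences were 2.78, 2.51 and 1.26 at passages 33, 34 and 35. Without 15EN replicate 3 the difference was 2.53 (adjusted p = 3.63e-05), and over the 6 fits that left out 1 array it ran from 1.98 to 2.53.

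MTF1, the zinc-finger transcription factor, had signals of 12.51, 13.29 and 12.27 in 15EN replicates 1 to 3, against 11.12, 11.55 and 11.32 in the VC replicates. The groups did not overlap here either, as for 36.3% of all genes (15EN above VC for 19.7% and below VC for 16.6%). The log2 difference was 1.36 ± 0.28 (SE, adjusted p = 0.00709), with means of 12.69 ± 0.54 in 15EN and 11.33 ± 0.22 in VC (SD, n = 3 each). This corresponds to a 2.57-fold higher signal, with a 95% interval of 1.66 to 3.98. At passages 33, 34 and 35 the difference was 1.39, 1.75 and 0.95. As for SLC30A1, the difference was smallest at passage 35. With hybridization control scaling, the differences of SLC30A1 and MTF1 were 3.05 and 2.23, still 2.17 and 1.35 above the median gene.

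**Figure D2:**
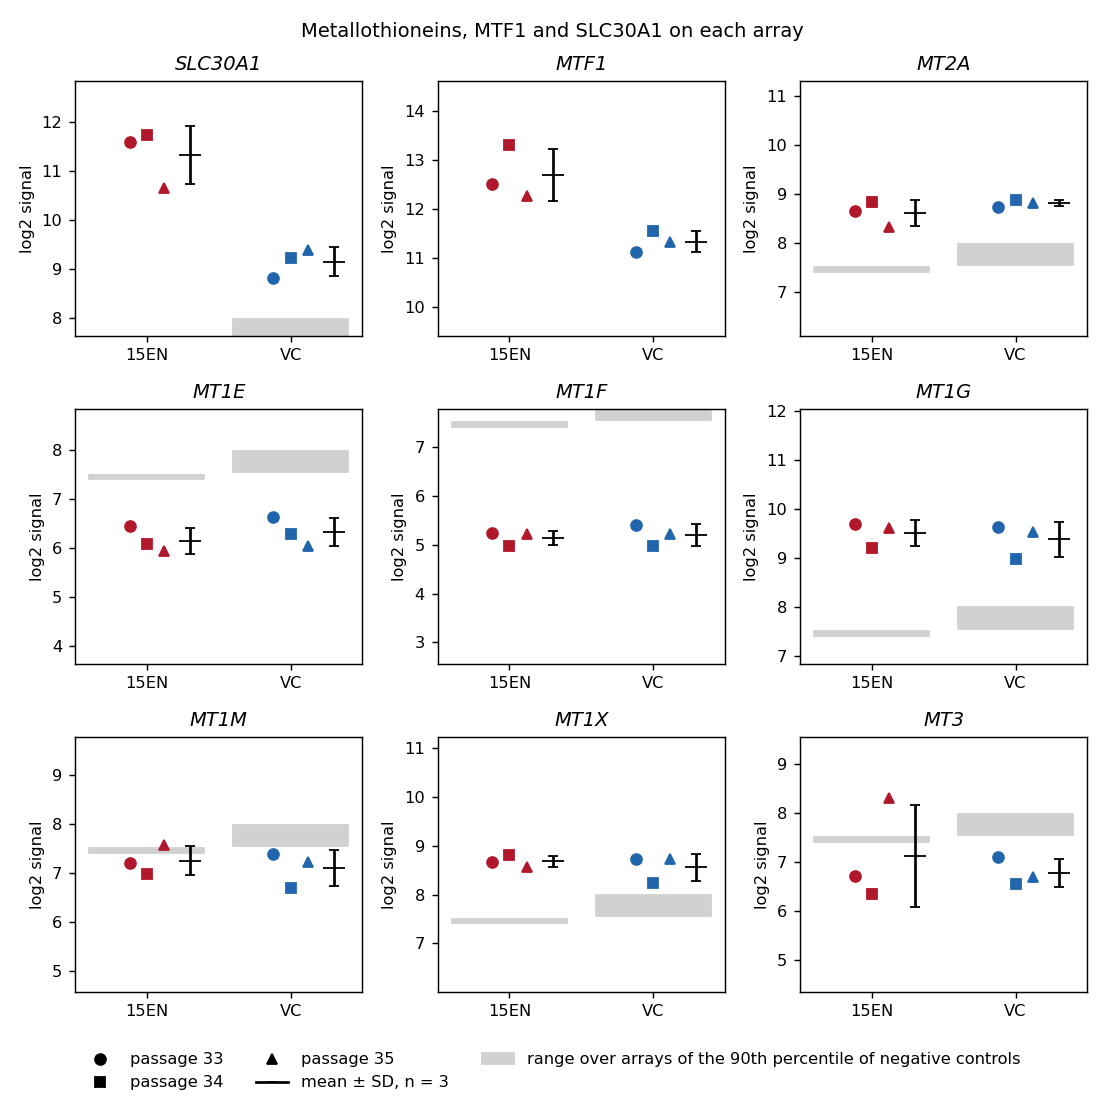
Log2 signal of the 9 members on each array, 15EN on the left and VC on the right, with a marker shape for each passage, the mean ± SD (n = 3) beside the points and a grey band for the range over a group's arrays of the 90th percentile of negative controls. Every panel spans the same number of log2 units. SLC30A1 and MTF1 separate the groups, and the groups overlap for the 7 metallothioneins.

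The metallothioneins gave overlapping values. MT2A, the most widely expressed isoform in human tissues, had signals of 8.66, 8.85 and 8.33 in 15EN replicates 1 to 3, against 8.74, 8.88 and 8.83 in the VC replicates. Its lowest array was 15EN replicate 3, and the other 15EN arrays lay within 0.09 of the VC array of their passage. The log2 difference was -0.21 ± 0.22 (SE, adjusted p = 0.581), with an interval of -0.69 to 0.27. On a fold scale this interval covers 0.622 to 1.21 times the VC signal.

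Among the 7 metallothionein members, MT1X and MT1G were the MT1 isoforms whose probe sets stood above the 90th percentile of the negative controls on all 6 arrays, as did that of MT2A. MT1X had signals of 8.67, 8.80 and 8.56 in 15EN, against 8.72, 8.23 and 8.72 in VC, where replicate 2 was the lowest. Its log2 difference was 0.12 ± 0.22 (SE, adjusted p = 0.769; interval -0.37 to 0.61). MT1G had signals of 9.70, 9.20 and 9.61 in 15EN, against 9.63, 8.97 and 9.52 in VC. In both groups replicate 2 (passage 34) was the lowest MT1G array, and 15EN was above VC at every passage, by 0.07 to 0.23. The log2 difference of MT1G was 0.13 ± 0.25 (SE, adjusted p = 0.793; interval -0.43 to 0.68).

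MT1E, MT1F and MT1M were dim, a description used here for a probe set on an array where its signal lay under the level that 90% of the 612 negative controls did not exceed (7.41 to 7.51 in 15EN, 7.55 to 7.99 in VC). About as many genes as not are dim by this measure (47.5% to 49.1% of genes on the 15EN arrays, 49.4% to 53.0% on the VC arrays), so it does not mean undetected. MT1M had signals of 7.21, 6.97 and 7.56 in 15EN, against 7.39, 6.70 and 7.23 in VC. Only 15EN replicate 3 was above the dim level for MT1M, and the difference was 0.14 ± 0.26 (SE, adjusted p = 0.774). MT1E had signals of 6.46, 6.08 and 5.94 in 15EN, against 6.64, 6.30 and 6.06 in VC. MT1E was lower in 15EN at each of the 3 passages, by 0.12 to 0.22, as was MT2A, and the MT1E difference of -0.17 ± 0.24 (SE, adjusted p = 0.691) was within the spread between replicates. MT1F had signals of 5.24, 4.97 and 5.21 in 15EN, against 5.41, 4.97 and 5.21 in VC, and a difference of -0.06 ± 0.21 (SE, adjusted p = 0.898).

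MT3, the neuronal isoform first described as growth inhibitory factor, was carried by 1 array. Its signals were 6.72, 6.35 and 8.32 in 15EN replicates 1 to 3, against 7.10, 6.54 and 6.69 in the VC replicates. 15EN replicate 3 was the highest array and the one above the dim level, and the other 15EN arrays were below the VC array of their passage. The difference was 0.35 ± 0.44 (SE, adjusted p = 0.653; interval -0.62 to 1.32), and without 15EN replicate 3 it was -0.24 (adjusted p = 0.488).

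Across the 7 metallothioneins the differences ran from -0.21 to 0.35 with a median of 0.12, and 0 had an unadjusted p under 0.05. For 6 of the 7 the 95% interval lay within 1 log2 unit (2-fold) of 0 on either side, MT3 being the exception. For 0 of the 7 did it lie within 0.5, so each interval holds a change of 0.5 in at least 1 direction. With 3 arrays a group, a metallothionein that was not called is therefore not shown to be unchanged. The mean signal over the 7 probe sets was 7.52, 7.32 and 7.65 in 15EN replicates 1 to 3, against 7.66, 7.23 and 7.47 in the VC replicates. After scaling to the hybridization controls all 7 passed the test against 0, with differences of 0.66 to 1.22. That scaling adds 1 constant to every gene, so the distances from the median gene, -0.22 to 0.34, are the same before and after it by construction. Metallothionein transcripts resemble each other closely, so a probe set can pick up signal of another isoform and the values of single isoforms are uncertain.

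The contrast between the exporter and the metallothioneins can be read within each array. SLC30A1 signal minus the mean of the 7 metallothioneins was 4.08, 4.43 and 3.01 in 15EN replicates 1 to 3, against 1.16, 2.01 and 1.93 in the VC replicates. This quantity does not depend on the scaling of an array. Its group means differed by 2.14, and the groups did not overlap. For MTF1 the same quantity was 4.99, 5.97 and 4.62 in 15EN, against 3.45, 4.32 and 3.85 in VC, a difference of 1.32. The values restate the pattern above. An exact permutation test of this quantity between the groups gave p = 0.1 for SLC30A1 and p = 0.1 for MTF1. That is the smallest p the test can give with these arrays, so it cannot decide whether the groups differ. The metallothionein mean rests in part on dim probe sets, as MT1E and MT1F were dim on 6 of 6 arrays and MT1M and MT3 on 5 of 6.

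**Figure D3:**
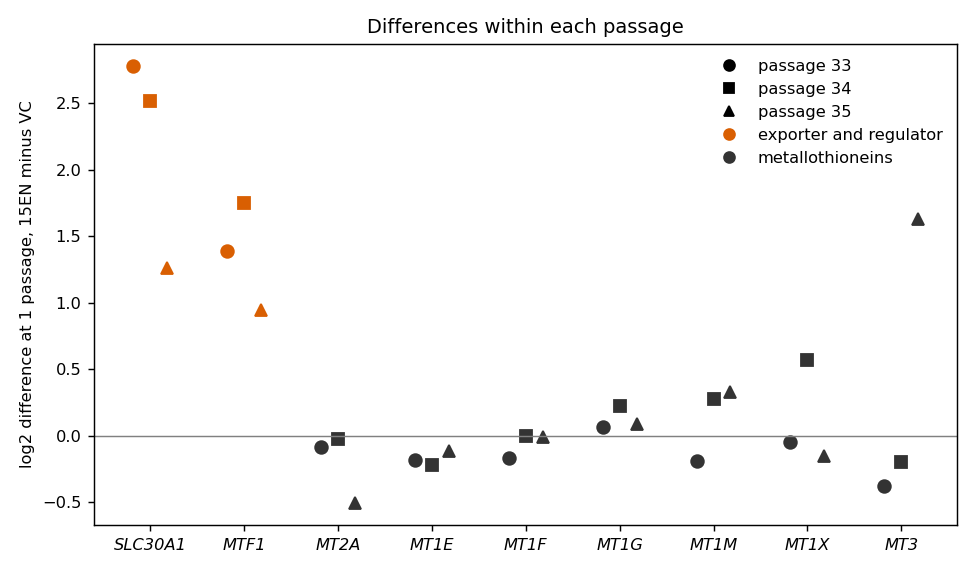
Log2 difference, 15EN minus VC, within passages 33, 34 and 35 for each member, with SLC30A1 and MTF1 in orange and the metallothioneins in dark grey. SLC30A1 and MTF1 are above 0 at every passage (1.26 to 2.78 and 0.95 to 1.75), and MT3 departs from 0 by 1.63 at passage 35.

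Of the other metallothionein genes, 6 of 12 were measured, and 0 were called higher and 0 lower. MT1B differed by -0.30 ± 0.25, MT4, an isoform of squamous epithelium, by -0.34 ± 0.26, MT1L by 0.27 ± 0.26, MT1H by 0.12 ± 0.21, MT1HL1 by 0.13 ± 0.21 and MT1IP by -0.09 ± 0.23 (SE). Over all 13 measured metallothionein genes adjusted p ran from 0.425 to 0.898, and 0 had an unadjusted p under 0.05. VC replicate 2 was the lowest VC array for 9 of the 13, whereas the lowest 15EN array was replicate 2 for 6 and replicate 3 for 6.

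As a family, SLC30A proteins mostly move zinc out of the cytosol or into vesicles, and the remaining 9 genes were taken by family name. Of these, 2 were higher, 2 lower and 5 not called, beside 12.3% higher and 9.09% lower among all genes. With hybridization control scaling 6 were higher and 1 lower, beside 12150 higher and 437 lower of all 17687 genes. SLC30A3 (ZnT3), which loads zinc into synaptic vesicles, had signals of 7.52, 7.73 and 7.38 in 15EN, against 10.14, 9.96 and 9.58 in VC. It fell by 2.35 on the log2 scale (SE 0.23, adjusted p = 0.000226) and by 1.48 after that scaling, where it also passed. Its 15EN signals were near the dim level, with replicate 3 under it, so the size of the fall is uncertain. The groups were far apart, in the direction opposite to SLC30A1. SLC30A7 (ZnT7), a Golgi transporter, had 14.15, 14.23 and 13.95 in 15EN, against 13.03, 13.04 and 13.03 in VC, a difference of 1.08 ± 0.20 (SE, adjusted p = 0.00406). SLC30A6 and SLC30A5 encode subunits of one heterodimeric transporter of the early secretory pathway and differed in opposite directions. SLC30A6 had 14.99, 14.88 and 14.79 in 15EN, against 13.95, 14.11 and 13.84 in VC (difference 0.92 ± 0.20, adjusted p = 0.00927). SLC30A5 had 12.55, 12.33 and 12.16 in 15EN, against 12.96, 13.20 and 13.08 in VC (difference -0.73 ± 0.21, adjusted p = 0.0303). This last call was lost without 15EN replicate 2 or any 1 VC array (adjusted p up to 0.122), and SLC30A5 turned to 0.13 after hybridization control scaling, below the median gene. The other 5 did not pass the test, among them the mitochondrial SLC30A9 at 0.23 ± 0.23 and the endosomal SLC30A4 at -0.22 ± 0.23 (SE, adjusted p = 0.561 and 0.584).

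The SLC39A family brings zinc into the cytosol, and of its 14 measured members 0 were higher and 1 lower. The share called, 7.14%, was below the 21.4% of all genes. After hybridization control scaling 8 were higher and 0 lower, beside 12150 and 437 of all 17687 genes. The median difference was -0.17. SLC39A6 (ZIP6, also LIV-1), a plasma membrane importer, had 12.79, 12.88 and 13.66 in 15EN, against 14.09, 14.49 and 14.84 in VC. Its values did not overlap, and it fell by 1.36 on the log2 scale (SE 0.29, adjusted p = 0.00812). After hybridization control scaling it was at -0.49 and did not pass (adjusted p = 0.189). SLC39A10, which zinc represses through MTF1 in mouse cells, had 11.14, 11.55 and 11.51 in 15EN, against 11.30, 11.18 and 11.43 in VC (difference 0.09 ± 0.21, adjusted p = 0.822). SLC39A14, an importer of zinc and iron, differed by -0.25 ± 0.33 (adjusted p = 0.671). Without 15EN replicate 3, 4 members of the family were lower.

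**Figure D4:**
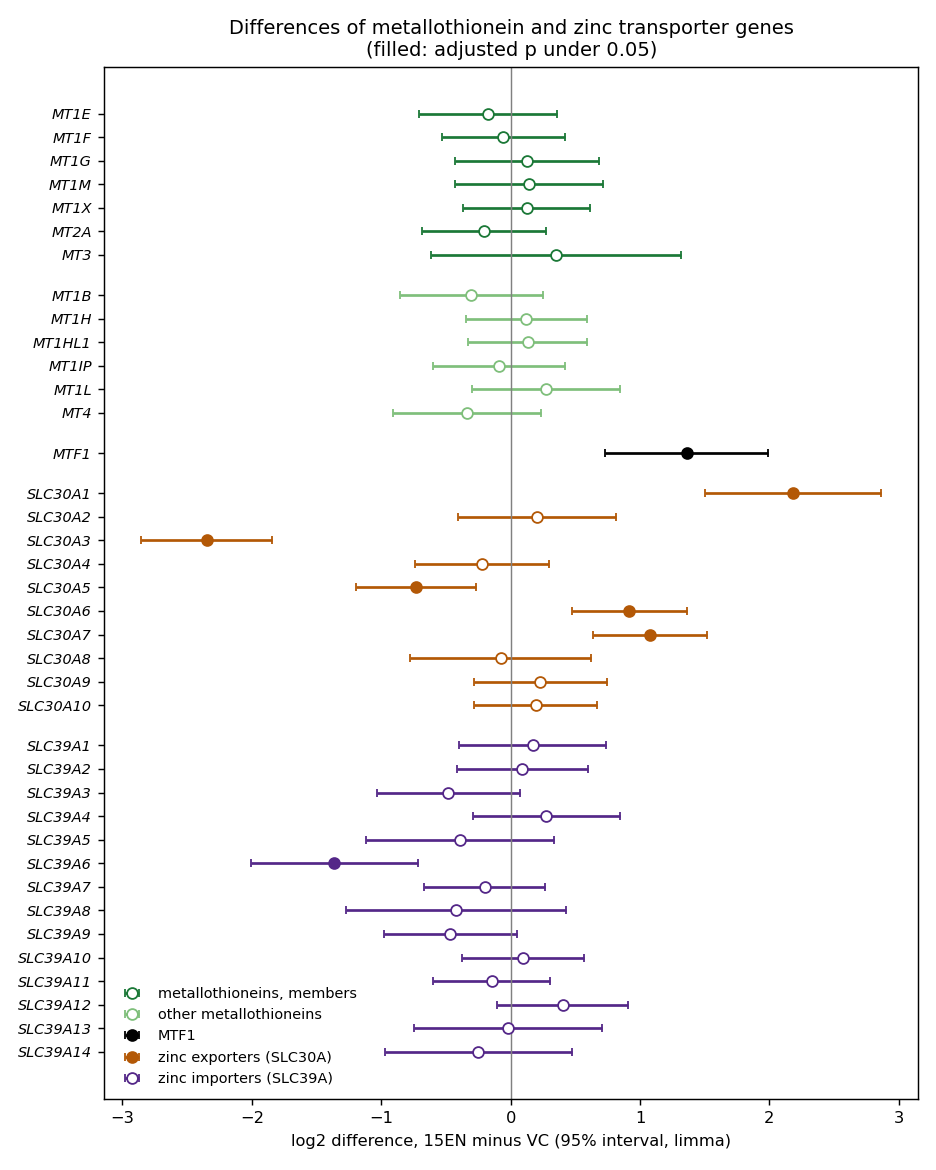
Log2 differences, 15EN minus VC, with 95% intervals from limma, filled where adjusted p was under 0.05. Shown are 13 metallothionein genes, MTF1, 10 genes of the zinc exporter family (SLC30A) and 14 of the zinc importer family (SLC39A). All 13 metallothionein intervals cross 0, and 7 of the other genes are filled, from SLC30A3 at -2.35 to SLC30A1 at 2.19.

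Genes of neighbouring responses were counted in the same fit. Of 10 measured copper-handling genes, 1 was higher and 1 lower, and this 20% is near the 21.4% called among all genes. Hybridization control scaling made it 6 and 0, beside 12150 and 437 of all 17687 genes. SCO1, a copper chaperone of cytochrome c oxidase, differed by 0.95 ± 0.22 (adjusted p = 0.0124), and SLC31A1, the plasma membrane copper importer, by -0.83 ± 0.21 (adjusted p = 0.0196). SCO1 lost its call without 15EN replicate 1 or VC replicate 2 (adjusted p up to 0.0599), and SLC31A1 without 15EN replicate 1, VC replicate 1 or VC replicate 2 (up to 0.0934). The copper count of higher genes ran from 0 to 3 over the fits that left out 1 array. Of 15 measured stress genes that metals and electrophiles induce, 10 were higher and 1 lower (73.3% called, beside 21.4% of all genes). Their median difference was 0.93, beside 0.12 for the 7 metallothioneins and 0.01 for all genes. HMOX1, heme oxygenase 1, had signals of 13.99, 15.03 and 13.85 in 15EN, against 6.13, 6.53 and 6.81 in VC, where it was dim on all arrays, so no size is given for its difference. ATF3, a stress-induced transcription factor, had 11.38, 11.76 and 9.09 in 15EN, against 6.35, 6.47 and 6.45 in VC, and was likewise dim on all VC arrays. Both were called higher. SQSTM1, an autophagy receptor, differed by 2.81 ± 0.27 (SE, adjusted p = 0.000204), and GCLM, a subunit of the glutathione-synthesis enzyme, by 2.27 ± 0.23 (SE, adjusted p = 0.000236), with 1 VC array dim for GCLM. The chaperone gene HSPA1A, which shares nearly all of its sequence with HSPA1B, was the lower one at -1.36 ± 0.25 (adjusted p = 0.00374). After hybridization control scaling 12 stress genes were higher and 0 lower, beside 12150 and 437 of all 17687 genes, so HSPA1A lost its call as lower. Of 10 measured glucocorticoid-responsive genes 3 were higher and 0 lower, beside 12.3% and 9.09% of all genes, with a median of 0.16. The same scaling gave 6 and 0 here, beside 12150 and 437 of all genes. The 3 higher as deposited were ERRFI1 (2.13 ± 0.22), the glucocorticoid receptor gene NR3C1 (1.55 ± 0.30) and SESN1 (1.23 ± 0.23). The count of lower genes rested on the fit. The kinase gene SGK1, at -0.75 ± 0.25, had an adjusted p of 0.0548, and with the replicate number as a block SGK1 (adjusted p = 0.0428) and the phosphatase gene DUSP1 (-0.84 ± 0.24, adjusted p = 0.0294) were called lower.

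The genes most like SLC30A1 in pattern were sought by the root mean square distance over the 6 arrays, each value taken relative to the gene's VC mean. They were SERPINB8 (0.133 log2 units), THAP1 (0.161), EIF2B2 (0.163) and ZDBF2 (0.167), with differences of 2.28, 2.11, 2.22 and 2.28. In all 4, as in SLC30A1, 15EN replicate 3 was the lowest 15EN array. The genes were picked by these same 6 values, so this likeness follows from the choice. For MT3, the metallothionein with the largest difference, the nearest were HORMAD1 (0.131), GSX1 (0.136), C6orf15 (0.141) and GDF10 (0.147). Group means of HORMAD1, GSX1 and GDF10 lay between 4.20 and 6.45, under the dim level. Those of C6orf15 were 8.05 in 15EN and 7.61 in VC. In each of the 4 nearest to MT3, 15EN replicate 3 was the highest of the 6 arrays, at 1.18 to 1.58 above the gene's VC mean. This too follows from how the genes were picked.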

How the data were processed

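Whole-transcript Affymetrix arrays of 1 colour (biotin) were made from 100 ng of total RNA, per the labels' protocols. The authors deposited log2 signals for each probe set. The submitters' processing notes name the Transcriptome Analysis Console. Its version, the normalization and the genome build were not given in the sources used here. That values are log2 was judged from the values (2.20 to 18.8).

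Of 24351 probe sets, 2903 are controls. Of the 21448 others, 17709 had exactly 1 symbol in the platform annotation and 0 had several, which left 3739 unnamed here. All 17709 matched RefSeq (assembly GRCh38.p14) by Entrez identifier. For genes with several probe sets, the one of highest mean signal was used (22 set aside). The comparison used limma 3.58.1 (R 4.3.3) with lmFit and eBayes, two-sided and with no term other than group, with no filter on dim genes, and the procedure was tested on simulated data. The number of arrays limits the precision.

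Across genes, deviations from the group means correlated at 0.229, 0.162 and 0.133 for arrays of the same number, and at -0.138 to -0.0165 for arrays of different numbers. As the labels tie each number to a passage, same-numbered arrays were treated as pairs in an alternative fit that blocks on replicate number. The other alternatives were quantile normalization, median centring, scaling to the hybridization controls, removal of a brightness trend by loess, leaving out the dimmest tercile of genes, leaving out each array, averaging a gene's probe sets, a trended robust prior and array weights.

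The members, lists and tests were chosen with earlier results of these data known. Named genes are all members, of each list up to 4 called genes of smallest p, any measured metallothionein or zinc transporter, up to 4 markers of the cell line, and the 4 genes nearest in pattern to SLC30A1 and to the metallothionein of largest difference. SGK1, DUSP1, HSPA1A and STMN2 were named after their values were seen. Promoter sequences are RefSeq's.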

Additional observations from a re-analysis of the deposited data

How the results depend on the processing

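Over the 15 alternatives, SLC30A1 and MTF1 stayed higher and called, at 1.98 to 3.05 and 1.06 to 2.23. The count of higher members was 2 and of lower members 0 in every alternative, except that scaling to the hybridization controls made it 9 higher. That scaling added the same constant to every gene, so the calls against 0 moved with it. It took the median of the members to 0.995, all genes to 12150 higher and 437 lower (96.5% higher, against 57.5% of 2179 and 1608 calls as deposited), other metallothioneins to 4 higher, SLC30A genes to 6 higher and 1 lower, SLC39A genes to 8 higher and 0 lower, copper genes to 6 higher and 0 lower, stress genes to 0 lower and glucocorticoid-responsive genes to 6 higher. The signs of MT1E (0.69), MT1F (0.81), MT2A (0.66), MT1B (0.57), MT4 (0.53), MT1IP (0.78), SLC30A5 (0.13) and SLC31A1 (0.036) turned with it. With the replicate number as a block, SLC30A1 (adjusted p = 0.000873) and MTF1 (0.00278) kept their calls, the lowest adjusted p among the 7 metallothioneins was 0.558, and all genes gave 2415 higher and 1788 lower calls. The block moved the count of lower glucocorticoid-responsive genes to 2. It changed no other count by over 1.5 times. That count was 1 after quantile normalization, median centring, trend removal, without the dimmest tercile, with a trended robust prior and with array weights. Array weights also gave 2 higher copper genes, 2 lower stress genes and 2 lower SLC39A genes; the cause was not tested.

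Over the 6 fits without 1 array, higher and lower calls ran from 1301 to 3227 and from 970 to 2240 for all genes, with both lowest without VC replicate 2 and both highest without 15EN replicate 3. They ran from 0 to 3 and 0 to 1 for copper genes, 1 to 2 for lower SLC30A genes, 1 to 4 for lower SLC39A genes, 7 to 11 for higher stress genes and 0 to 1 for lower glucocorticoid-responsive genes. Some uncalled metallothioneins changed sign without 1 array: MT1F ran from -0.170 to 0.048, MT1G from -0.074 to 0.278, MT1M from -0.065 to 0.284, MT1X from -0.039 to 0.204, MT3 from -0.243 to 0.741 and MT1IP from -0.203 to 0.113. The median difference of the members ran from -0.065 to 0.28.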

Other observations

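Metal response element cores can be set beside the calls over the whole array. A gene with several promoter windows was counted by the window with the most cores, so genes with more windows reach high counts more easily. Of 14250 array genes with a RefSeq promoter window, 13.0% were higher and 9.11% lower in 15EN. Among the 5887 with at least 1 core, 14.2% were higher and 10.7% lower. The shares were 13.7% and 11.4% among the 1941 with at least 2 cores, and 11.6% and 10.8% among the 526 with at least 3. Among the 136 with at least 4 cores 10.3% were higher and 12.5% lower, whereas among the 34 with at least 5 cores 14.7% were higher and 5.88% lower, so the shares had no one direction with the number of cores. These are descriptions without a test, and a match of letters is not a binding site.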
